A study of Mus musculus with 10 samples.

Results

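The genes described here encode the subunits of the mitochondrial respiratory chain and of ATP synthase, measured in mouse oocytes with and without RNA interference against basonuclin (Bnc1). Members were taken by a symbol pattern: Ndufa, Ndufb, Ndufc, Ndufs and Ndufv genes with a number for complex I, Sdh genes for complex II, Uqcr genes and Cyc1 for complex III, Cox5 to Cox8 genes with a subunit letter for complex IV, Atp5 genes for complex V, and Cycs for cytochrome c. The pattern leaves out some subunits, among them Cox4i1 of complex IV and Ndufab1 of complex I. On the array 80 such symbols were named, and 76 of them were above log2 5 (an intensity of 32) in at least 4 samples, among 10590 genes that passed the same filter. Each gene is given by its brightest probe set. The members below the filter were Cox7b2, Cox7c, Cox8b and Ndufb4, with group means between 2.46 and 3.34 on the log2 intensity scale. Just inside it were Cox7a1, with group means of 4.10 and 5.38, and Cox8c, with 5.95 and 6.11. Probe sets tied to more than 1 gene in the annotation were not used, so further subunits may be on the array without being counted here.

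Oxidative phosphorylation runs in the inner mitochondrial membrane. Complexes I and II pass electrons from NADH and succinate to ubiquinone, complex III passes them on to cytochrome c, and complex IV hands them to oxygen, while complexes I, III and IV pump protons whose return through ATP synthase, complex V, drives ATP synthesis. Most subunits are encoded in the nucleus and a few in mitochondrial DNA. A growing oocyte accumulates many mitochondria and depends on them for ATP, since it uses little glucose by itself. Basonuclin is a zinc finger protein of keratinocytes and germ cells.

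The study compared fully grown oocytes at the germinal vesicle (GV) stage, the arrest in meiotic prophase, from non-transgenic mice (4 samples, replicates 1, 2, 7 and 8) and from RNAi-transgenic mice (6 samples, replicates 4, 5, 6, 11, 12 and 13). Each sample held RNA of about 50 oocytes of a single mouse. The transgene lowers basonuclin mRNA only in oocytes, and its promoter, the strain and the age of the mice are not given in the sources used here. Both groups were handled alike as far as the labels say, and p-values set the group difference against the variation between these samples. In bulk RNA, fewer cells of a type and less RNA per cell cannot be told apart.

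Bnc1, the target, had a log2 level of 11.57 ± 0.15 (SD, n = 4) in controls and of 3.85 ± 0.21 (SD, n = 6) under RNAi, with no overlap (exact permutation p = 0.00476, two-sided, the smallest that 210 splits allow). The share of probe sets above the filter level was 40.1% to 40.9% per array. None of 9 oocyte markers passed the limma threshold, and 4 had an unadjusted p below 0.05, with summed log2 levels of 17.37 to 17.48 in controls against 17.35 to 17.60. Of 6 granulosa and cumulus cell markers tested 2 were higher in RNAi-transgenic samples (Fshr by 1.24 and Cyp11a1 by 1.57), with summed log2 levels of 10.59 to 10.79 against 10.53 to 11.26, and Amh, Inhba, Foxl2, Star, Hsd3b1, Has2 and Ptx3 were below the filter. Among stroma and vessel markers 3 of 5 were higher and 1 lower (8.76 to 9.05 against 9.02 to 9.46), with Pecam1, Cdh5, Col1a1, Col1a2 and Col3a1 below the filter, and of 2 blood markers 1 was higher and 1 lower (11.41 to 11.58 against 11.00 to 11.63), with Ptprc, Hba-a1, Cd68, Lyz2 and Cd74 below it. Beside these marker counts, 18.9% of all genes tested were higher and 18.3% lower. The part of these cell types in the results that follow was not tested. Non-transgenic replicate 1 and RNAi-transgenic replicate 6 lay farthest from the other samples of their groups, by a mean of 0.32 and 0.26 log2 units over genes.

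Most respiratory chain and ATP synthase genes differed little between the groups, and those that passed the threshold went in both directions. By limma with Benjamini-Hochberg adjustment over all 10590 genes, 21 of the 76 members passed an adjusted p of 0.05, which is 27.6%, beside 37.2% of all genes tested. Of these 7 were higher in RNAi-transgenic oocytes (9.21%, beside 18.9% of all genes) and 14 were lower (18.4%, beside 18.3%). The higher members were Atp5g3, Cox7a1, Ndufa8, Uqcrb, Ndufb8, Atp5h and Ndufa2. Here and in the counts below, Cox7a1 entered the test only through the RNAi-transgenic group, so the filter favoured a higher call for it. The lower members were Cox6a2, Atp5o, Ndufs5, Ndufs1, Ndufs8, Ndufs4, Ndufv2, Ndufa13, Ndufb3, Uqcrh, Ndufc2, Uqcrc2, Ndufs3 and Cox6a1. Without non-transgenic replicate 1 and RNAi-transgenic replicate 6 the counts were 6 higher and 14 lower (26.3% of members, beside 34.4% of all genes), of which 6 and 10 were the same genes.

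The sizes of these differences were modest. By fitted change, 1 member past the threshold reached 2-fold (1.32%, beside 8.98% of all genes) and 5 reached 1.5-fold (6.58% beside 19.1%). The member at 2-fold was Cox7a1, whose controls were all below the filter level, and with it at its lower bound of 1.30-fold 0 members reached 2-fold and 4 reached 1.5-fold. The absolute log2 change was below 0.25 in 58 members, 76.3%, compared with 51.9% of all genes tested. Members were also brighter, with a median of the mean levels in controls of 10.91, compared with 8.36 for all genes tested. The part of this level in the sizes was not tested. Members had a median log2 change of -0.07 and all genes one of -0.03, and 49 of 76 members (64.5%) had a negative sign, compared with 54.0% of all genes. In 17 members (22.4%, beside 28.0% of all genes) the 4 non-transgenic and 6 RNAi-transgenic values did not overlap, namely 16 that passed the threshold and Ndufb11, a membrane subunit of complex I, which did not (13.77 and 13.88 on average). For 55 members the test was not passed, with log2 changes from -0.39 (Ndufb10) to 0.20 (Atp5c1). The spread between replicates was small, with a median SD over members of 0.13 in non-transgenic and 0.15 in RNAi-transgenic samples.

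**Figure D1:**
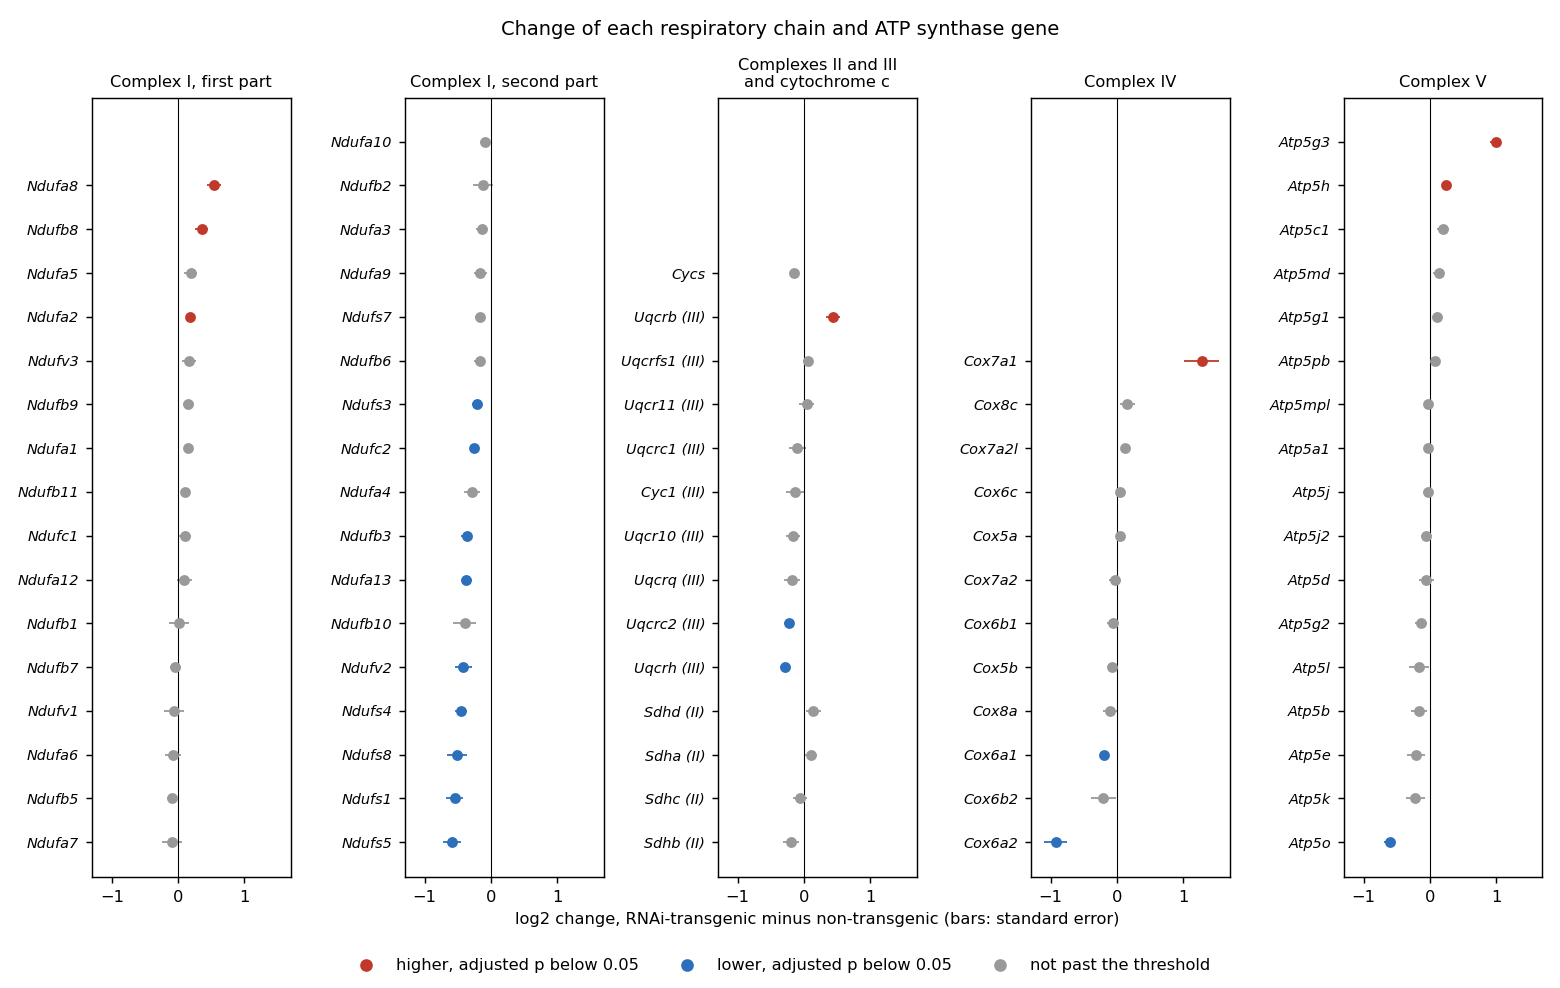
Log2 change of each of the 76 genes (x axis, RNAi-transgenic minus non-transgenic; points are the limma estimate and bars its standard error), by complex, with 4 non-transgenic and 6 RNAi-transgenic samples. Red marks the 7 genes that were higher and blue the 14 that were lower at an adjusted p below 0.05, and the grey points all lie between -0.39 and 0.20.

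Complex I oxidises NADH in its N module, reduces ubiquinone in its Q module and pumps protons in its membrane arm. Of 33 complex I genes tested, 3 were higher and 9 were lower, with a median log2 change of -0.10. Beside this and the counts by module and complex below, 18.9% of all genes tested were higher and 18.3% lower. Among the 6 nuclear genes of core subunits, those that carry the flavin, the iron-sulphur clusters and the quinone site, 4 were lower and none higher, with a median change of -0.31. The supernumerary subunits, which surround the core, had 3 higher and 5 lower of 27, with a median of -0.09. That split was not itself tested. By module, the N module had 1 higher and 3 lower of 9, the Q module 0 and 2 of 4, and the membrane arm 2 and 4 of 20. Membrane arm here means every Nduf member not listed for the N or Q module, so it may hold genes that belong elsewhere.

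In the N module, Ndufs1 encodes the large iron-sulphur subunit that relays electrons from the flavin. It was at 8.98, 8.77, 8.88 and 8.77 in non-transgenic replicates 1, 2, 7 and 8, in that order here and below, and ran from 7.83 through a median of 8.40 to 8.48 in the 6 RNAi-transgenic samples. Every RNAi-transgenic value was below every non-transgenic one, and Ndufs1 fell by 0.55 (SE 0.13, limma adjusted p = 0.00681). Ndufv2, another iron-sulphur core subunit, was at 11.81, 12.19, 11.95 and 11.97 against 11.27, 11.62 and 11.89 (lowest, median and highest). The groups overlapped in that the highest RNAi-transgenic sample exceeded the lowest control, and Ndufv2 fell by 0.42 (SE 0.13, limma adjusted p = 0.0244). That call was lost without non-transgenic replicate 2 or 8 (adjusted p from 0.0501 to 0.0778) and with the Gapdh RNA length measure as a covariate (0.114). Ndufs4 encodes a supernumerary subunit needed for attachment of the N module late in assembly. Its values were 9.37, 9.28, 9.17 and 9.05 against 8.65, 8.75 and 8.94, without overlap, a fall of 0.45 (SE 0.09, limma adjusted p = 0.00278). Of its dimmer probe sets 1 fell by 0.47 and the other differed by 0.06. Ndufa2, a small subunit with a thioredoxin-like fold, was the only N module gene that was higher. It was at 13.25, 13.34, 13.21 and 13.13 against 13.25, 13.43 and 13.53. The groups overlapped and the change of 0.18 (SE 0.07, limma adjusted p = 0.0466) missed the threshold in 7 of 10 fits that left out 1 sample (adjusted p from 0.0636 to 0.131, without any sample other than non-transgenic replicate 2 and RNAi-transgenic replicates 5 and 12) and with the Gapdh covariate (0.129). Ndufv1, which binds NADH and the flavin, did not pass, with means of 11.33 and 11.27. Ndufv3, Ndufa6, Ndufa7 and Ndufa12 did not pass either.

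In the Q module, Ndufs8 encodes the subunit whose iron-sulphur clusters lead toward the quinone. Non-transgenic values were 10.60, 10.97, 10.71 and 10.45, and RNAi-transgenic values ran from 9.84 through 10.09 to 10.68. A single RNAi-transgenic sample lay within the control range, and the other 5 were below all controls. Ndufs8 fell by 0.51 (SE 0.16, limma adjusted p = 0.0239), a call that was lost without non-transgenic replicate 2 or 7 (0.0561 to 0.0776). Its dimmer probe sets fell by 0.21 to 0.45, and none of them passed (limma adjusted p from 0.096 to 0.142, over all probe sets). Ndufs3, a core subunit at the base of the Q module, stood at 11.25, 11.21, 11.35 and 11.05 against 10.91, 10.99 and 11.16. The ranges overlapped, and its fall of 0.21 (SE 0.07, limma adjusted p = 0.0437) missed the threshold in 8 of 10 fits that left out 1 sample (0.0666 to 0.123, all but those without non-transgenic replicate 8 or RNAi-transgenic replicate 4). Ndufs7, the core subunit next to the quinone site, did not pass with 11.86 and 11.70, nor did the supernumerary Ndufa5 with 11.56 and 11.75.

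The membrane arm held the complex I genes that rose most and fell most. Ndufs5, a small subunit on the intermembrane space side, was at 8.64, 8.81, 8.47 and 8.38 in controls and at 7.63, 7.93 and 8.32 in RNAi-transgenic oocytes. The groups did not overlap and Ndufs5 fell by 0.59 (SE 0.14, limma adjusted p = 0.00607). Ndufa8, a neighbouring subunit of the same side with the same kind of paired-cysteine fold, was at 11.26, 11.42, 11.17 and 11.06 against 11.58, 11.75 and 12.12. All RNAi-transgenic values were above all controls, and Ndufa8 rose by 0.54 (SE 0.11, limma adjusted p = 0.00269). The changes of both subunits thus had opposite signs. Ndufa13, also known as GRIM-19, was at 10.83, 11.09, 10.85 and 10.91 against 10.38, 10.55 and 10.71, a fall of 0.37 without overlap (SE 0.09, limma adjusted p = 0.00589). Ndufc2, an anchor of the proximal membrane arm, was at 13.08, 13.17, 13.18 and 13.03 against 12.72, 12.86 and 12.92. Its fall of 0.26 was small and its replicates were close together (SE 0.05, limma adjusted p = 0.0025). Probe sets for Ndufc2, Ndufa13 and Ndufa2 are of the kind that may also match related transcripts.

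Ndufb3 and Ndufb8 belong to the distal end of the membrane arm. Ndufb3 was at 10.29, 10.67, 10.55 and 10.32 in controls and at 9.95, 10.09 and 10.20 in RNAi-transgenic samples, and fell by 0.37 without overlap (SE 0.09, limma adjusted p = 0.00785). Ndufb8 was at 11.07, 10.90, 10.86 and 10.75 against 11.13, 11.19 and 11.56, and rose by 0.36 without overlap (SE 0.09, limma adjusted p = 0.0127). Within this distal part 1 gene was therefore higher and another lower. The other 14 membrane arm genes did not pass, among them Ndufb10 with 10.86 and 10.46 and Ndufa4, now counted as a subunit of complex IV, with 9.04 and 8.76.

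**Figure D2:**
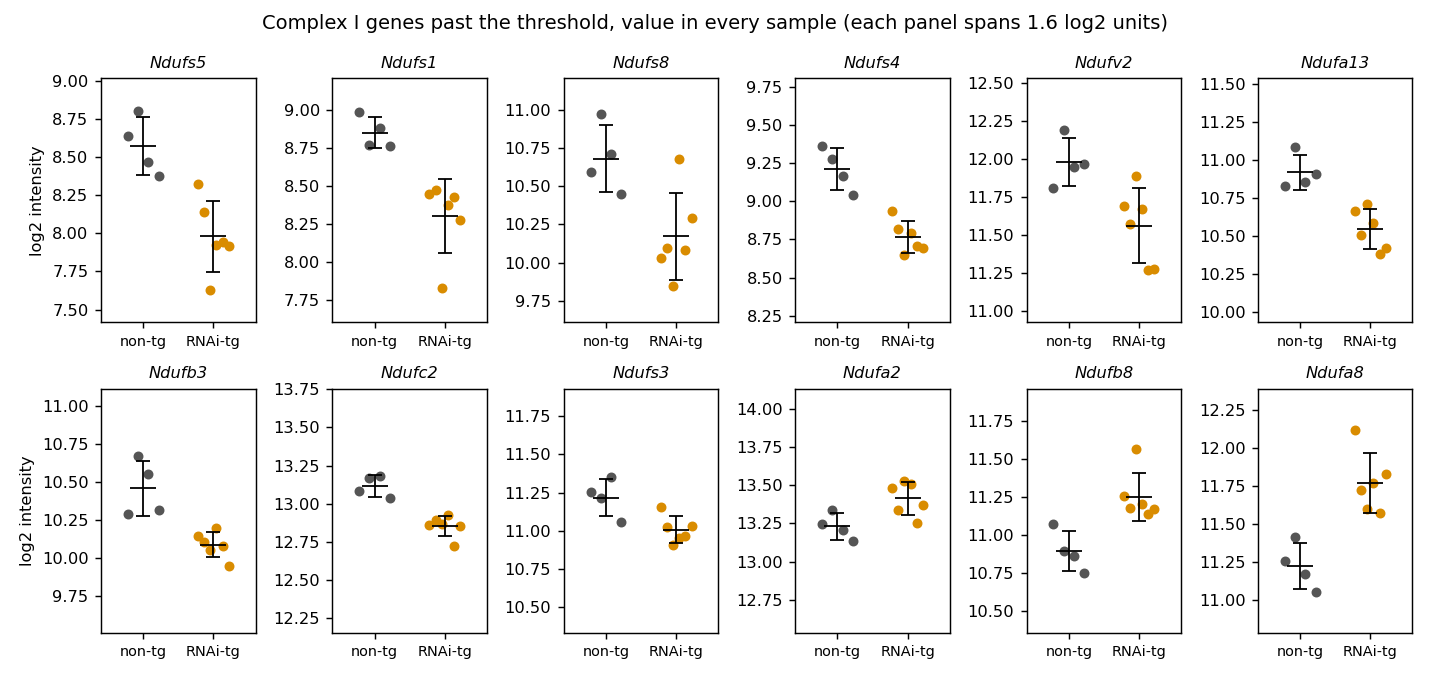
Log2 intensity of the 12 complex I genes past the threshold in each of 4 non-transgenic (grey) and 6 RNAi-transgenic (orange) samples, with bars for the mean and SD. Each panel spans the same range of log2 units but starts at its own level, and Ndufa8, Ndufb8 and Ndufa2 are the panels in which RNAi-transgenic values are the higher ones.

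Complex II, succinate dehydrogenase, belongs to both the citric acid cycle and the respiratory chain. None of its 4 genes passed the threshold by limma, none had an unadjusted p below 0.05, and their median log2 change was 0.02. Sdha, the flavoprotein, was at 11.55, 11.23, 11.62 and 11.49 in controls and between 11.40 and 11.73 with a median of 11.57 in RNAi-transgenic oocytes. For Sdhb, the iron-sulphur subunit, the values were 9.17, 9.55, 9.46 and 9.47 against 9.002, 9.20 and 9.55. The groups overlapped for both. Of the membrane anchors, Sdhc was at 10.23, 10.63, 10.66 and 10.44 against 10.17, 10.48 and 10.52, and Sdhd was at 11.22, 11.50, 11.47 and 11.38 against 11.17, 11.53 and 11.82. Log2 changes were 0.10 for Sdha (SE 0.09), -0.19 for Sdhb (SE 0.13), -0.05 for Sdhc (SE 0.10) and 0.14 for Sdhd (SE 0.11), each close to or below its own spread between replicates.

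In complex III 1 of 9 genes was higher and 2 were lower, with a median log2 change of -0.14. Uqcrb, a subunit next to the quinone site, was at 12.79, 12.80, 12.96 and 13.00 in controls and at 13.03, 13.32 and 13.71 (lowest, median and highest) in RNAi-transgenic samples. Without overlap, it rose by 0.44 (SE 0.11, limma adjusted p = 0.00981), and its dimmer probe set rose by 0.69. Uqcrh, the acidic hinge protein that touches cytochrome c1, was at 10.54, 10.48, 10.57 and 10.52 against 10.005, 10.23 and 10.38. It fell by 0.29 without overlap (SE 0.08, limma adjusted p = 0.0177), which was not past the threshold with the Gapdh RNA length measure as a covariate (0.0903). The probe set of Uqcrh, too, may match related transcripts. Uqcrc2, a core protein on the matrix side, was at 14.40, 14.22, 14.16 and 14.26 against 13.82, 14.06 and 14.13. The groups were just separate, and Uqcrc2 fell by 0.23 (SE 0.07, limma adjusted p = 0.0215), which was lost without non-transgenic replicate 1 (0.0632). Its dimmer probe set fell by 0.25 and did not pass (limma adjusted p = 0.108, over all probe sets).

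The catalytic subunits of complex III showed no call. Cyc1, cytochrome c1, had means of 8.82 and 8.69, and Uqcrfs1, the Rieske iron-sulphur protein, had 10.08 and 10.14. Uqcrc1, Uqcrq, Uqcr10 and Uqcr11 did not pass either, with log2 changes between -0.18 and 0.04. Cytochrome c (Cycs), which shuttles electrons from complex III to complex IV, was at 13.33, 13.52, 13.52 and 13.39 against 13.20, 13.29 and 13.38. Its change of -0.15 (SE 0.05, limma adjusted p = 0.0549) was not past the threshold. The dimmest of its 3 probe sets had the opposite sign, from 7.77 to 8.54, a rise of 0.76 (limma adjusted p = 0.021, over all probe sets), so the Cycs probe sets disagreed.

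Complex IV, cytochrome c oxidase, has small nuclear subunits with isoforms of different tissues, and 2 of these families held all its calls. Of 12 genes tested 1 was higher and 2 were lower, with a median log2 change of -0.04. Cox6a2, the isoform of heart and skeletal muscle, was at 8.08, 7.54, 8.31 and 7.72 in controls and at 6.68, 6.92 and 7.41 in RNAi-transgenic oocytes. Each RNAi-transgenic value was below each control, and Cox6a2 fell by 0.92 (SE 0.18, limma adjusted p = 0.00188). Cox6a1, the isoform of most other tissues, was at 14.11, 14.07, 14.05 and 14.05 against 13.81, 13.85 and 14.07. Here 1 RNAi-transgenic sample, replicate 6, reached the controls and the other 5 lay below them. Cox6a1 fell by 0.19 (SE 0.05, limma adjusted p = 0.0148), and with the Gapdh covariate the adjusted p was 0.128.

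Cox7a1, the muscle isoform of another small subunit, was the member with the largest estimated change. Controls were at 4.33, 3.80, 4.25 and 4.04, all below the filter level, and RNAi-transgenic samples were at 4.76, 5.17 and 6.20, of which 5 of 6 were above it. The groups did not overlap, and the estimated change was 1.28 (SE 0.27, limma adjusted p = 0.00331). Since the gene entered the test only through the RNAi-transgenic group, the change is given as at least 1.30-fold higher, the RNAi-transgenic mean over the filter level. Cox7a2, its counterpart in most tissues, was at 12.87, 13.02, 12.75 and 12.76 against 12.55, 12.82 and 13.09, and Cox7a2l, which joins complexes III and IV into supercomplexes, was at 12.19, 12.05, 12.15 and 12.14 against 12.19, 12.26 and 12.34. Neither passed, with changes of -0.03 (SE 0.10) and 0.13 (SE 0.05).

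The remaining isoform families of complex IV had no call. Cox6b1, of most tissues, was at 12.48, 12.47, 12.36 and 12.46 against 12.22, 12.35 and 12.74, and Cox6b2, first known from testis, was at 8.12, 8.23, 8.06 and 7.51 against 7.31, 7.81 and 8.25. Cox8a was at 7.65, 7.59, 7.85 and 7.64 against 7.35, 7.61 and 7.80, and Cox8c, another isoform known from testis, was at 5.89, 5.79, 6.08 and 6.05 against 5.94, 6.03 and 6.43. The groups overlapped in all 4 genes. Cox5a, Cox5b and Cox6c, single genes here, had log2 changes of 0.05, -0.07 and 0.05 and did not pass.

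ATP synthase, complex V, turns a ring of c subunits in the membrane against a fixed stalk. Of its 17 genes 2 were higher and 1 was lower, with a median log2 change of -0.03. The c subunit is made from 3 genes, Atp5g1, Atp5g2 and Atp5g3, whose precursors differ in the import sequence that is cut off and share the mature protein. Promoter windows of these genes, the 250 bases before the RefSeq start in GRCm38.p6, are shown because the genes share a product and differ in their change, and those of Atp5o and Atp5h because they complete the calls in this complex. All are on the minus strand and read 5′ to 3′ toward the gene: Atp5g1 at chr11:96075632-96075881, Atp5g2 at chr15:102671048-102671297, Atp5g3 at chr2:73911327-73911576, Atp5o at chr16:91931631-91931880 and Atp5h at chr11:115419920-115420169. Capitals mark matches, on either strand, to GCGC and TGCGC set apart by any 1 base (nuclear respiratory factor 1, NRF1), CCGGAAG (ETS factors) or AAGATGGCG (YY1).
Atp5g1: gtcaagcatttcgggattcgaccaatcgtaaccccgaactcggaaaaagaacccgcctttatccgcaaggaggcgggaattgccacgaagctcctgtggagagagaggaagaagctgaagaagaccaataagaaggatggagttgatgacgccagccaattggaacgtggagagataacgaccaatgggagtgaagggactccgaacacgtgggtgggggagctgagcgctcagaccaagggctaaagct
Atp5g2: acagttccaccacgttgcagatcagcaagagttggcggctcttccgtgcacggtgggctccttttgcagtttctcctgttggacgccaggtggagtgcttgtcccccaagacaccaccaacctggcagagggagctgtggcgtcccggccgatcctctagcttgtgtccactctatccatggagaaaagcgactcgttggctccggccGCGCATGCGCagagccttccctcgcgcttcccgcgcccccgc
Atp5g3: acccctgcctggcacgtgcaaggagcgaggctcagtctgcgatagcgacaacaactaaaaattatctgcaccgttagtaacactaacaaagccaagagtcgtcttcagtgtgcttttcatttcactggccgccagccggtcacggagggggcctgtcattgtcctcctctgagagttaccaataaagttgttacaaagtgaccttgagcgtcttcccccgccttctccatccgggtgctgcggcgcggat
Atp5o: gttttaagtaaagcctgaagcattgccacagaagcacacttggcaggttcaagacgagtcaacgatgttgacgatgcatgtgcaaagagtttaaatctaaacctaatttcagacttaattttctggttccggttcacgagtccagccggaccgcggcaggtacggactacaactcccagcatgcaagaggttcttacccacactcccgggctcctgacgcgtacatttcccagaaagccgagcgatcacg
Atp5h: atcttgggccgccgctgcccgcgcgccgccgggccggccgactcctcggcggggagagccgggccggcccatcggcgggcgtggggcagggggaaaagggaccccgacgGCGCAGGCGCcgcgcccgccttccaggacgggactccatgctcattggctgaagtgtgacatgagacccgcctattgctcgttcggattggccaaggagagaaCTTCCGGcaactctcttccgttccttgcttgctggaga

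The windows of Atp5g1, Atp5g3 and Atp5o held none of the 3 letter patterns. That of Atp5g2 held an NRF1 match beginning 42 bases before the start, and that of Atp5h an NRF1 match beginning at 141 and an ETS match at 38 bases before it. Over all 63 members with a window (68 windows), 11 windows (16.2%) had the NRF1 pattern, beside 3.74% of all 32851 RefSeq windows. The latter belong to 27025 genes and were not limited to genes past the filter, as the members were. The ETS pattern was in 12 (17.6% beside 6.91%) and the YY1 pattern in 1 (1.47% beside 0.606%). The median GC content of member windows was 57.6%, compared with 52.4%. The part of base composition or of expression in oocytes in these shares was not tested. Among the 5 windows of higher members 2 had the NRF1 and 1 the ETS pattern, among the 11 of lower members 2 and 3, and among the 52 of members not past the threshold 7 and 8. Among patterns of general promoters, GGGCGG (33.8% beside 32.7%) and TATAAA (10.3% beside 12.4%) were close to the rest. CCAAT was in 41.2% beside 33.8%. These are matches of letters and were not tested as binding sites.

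Atp5g3 had the lowest adjusted p of all members. Controls were at 11.25, 11.29, 11.38 and 11.44, and RNAi-transgenic samples ran from 12.07 through 12.37 to 12.47. All 6 lay well above all controls, and Atp5g3 rose by 0.99 (SE 0.09, limma adjusted p = 6.74e-06). Atp5g1 was at 10.26, 10.24, 10.23 and 10.08 against 10.15, 10.32 and 10.51, and Atp5g2 was at 10.91, 11.18, 11.19 and 10.95 against 10.78, 10.92 and 11.17. Their groups overlapped, and their changes of 0.11 (SE 0.09) and -0.13 (SE 0.09) did not pass.

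Atp5o encodes the oligomycin sensitivity conferring protein, which ties the stalk to the catalytic head. It was at 11.65, 11.93, 11.77 and 11.49 in controls and at 10.99, 11.10 and 11.25 in RNAi-transgenic samples. No value overlapped, and Atp5o fell by 0.60 (SE 0.09, limma adjusted p = 0.000528), as did its dimmer probe set by 0.61. Atp5h, subunit d of the same stalk, was at 14.07, 14.16, 14.19 and 14.11 against 14.25, 14.34 and 14.51. It rose by 0.24 without overlap (SE 0.06, limma adjusted p = 0.0088), and with the Gapdh covariate the adjusted p was 0.0694. The dimmer probe set of Atp5h rose by 0.21 and did not pass (limma adjusted p = 0.161, over all probe sets). Other stalk genes (Atp5pb and Atp5j) had log2 changes of 0.08 and -0.03. The genes of the catalytic head and the central stalk, Atp5a1, Atp5b, Atp5c1, Atp5d and Atp5e, lay between -0.21 and 0.20, and none of them passed.

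Whether isoform genes of one subunit changed differently was tested on the difference between their log2 values within each array, in 9 pairs, with exact permutation of the samples, two-sided, and Benjamini-Hochberg adjustment over the pairs. The change of Atp5g3 exceeded that of Atp5g1 by 0.88 and that of Atp5g2 by 1.13 (exact p = 0.00476 and adjusted p = 0.0214 for each). Atp5g2 changed by -0.25 relative to Atp5g1 (exact p = 0.0286, adjusted 0.0429). Cox6a2 changed by -0.73 relative to Cox6a1 (exact p = 0.0143, adjusted 0.0257), so the measured fall was larger for the muscle isoform. The control means were 7.91 for Cox6a2 and 14.07 for Cox6a1, and the part of this gap in level was not tested. The pairs of Cox7a1 with Cox7a2 and with Cox7a2l are not read as calls, since Cox7a1 was below the filter level in all controls. With the adjustment over the other 7 pairs, chosen after seeing the data, both Atp5g3 pairs had an adjusted p of 0.0167 and Cox6a2 one of 0.0333, while Atp5g2 against Atp5g1, at 0.05, was no longer past the threshold.

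The other 3 pairs did not pass: -0.15 for Cox6b2 relative to Cox6b1 (exact p = 0.386), 0.15 for Cox7a2l relative to Cox7a2 (exact p = 0.243) and 0.25 for Cox8c relative to Cox8a (exact p = 0.0524, adjusted 0.0673). Leaving out 1 sample gives fewer splits, and each of the 4 calls was then lost for at least 1 sample: without non-transgenic replicate 7 for both Atp5g3 pairs (exact permutation, adjusted p = 0.0536, with differences of 0.88 and 1.10), and without non-transgenic 7 or RNAi-transgenic 11 or 13 for Cox6a. For both Atp5g3 pairs the groups stayed separate, so the exact p was the smallest that the remaining splits allow. That loss therefore does not show a weaker difference. The pair Atp5g2 and Atp5g1 kept its call only without non-transgenic replicate 1 or RNAi-transgenic replicate 6.

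**Figure D3:**
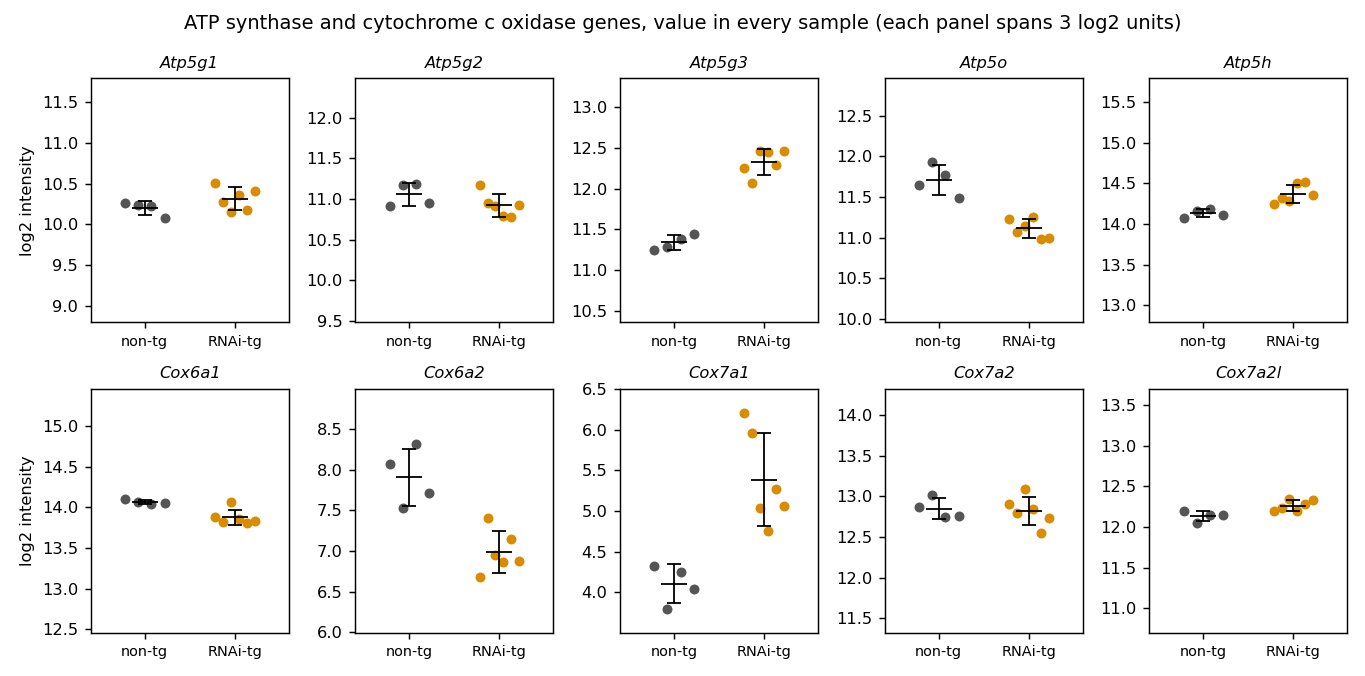
Log2 intensity of the c subunit genes, Atp5o and Atp5h of ATP synthase (top) and of 2 isoform families of cytochrome c oxidase (bottom) in each of 4 non-transgenic (grey) and 6 RNAi-transgenic (orange) samples, with bars for the mean and SD. Panels span 3 log2 units from their own starting level, and Atp5g3 rose by 0.99 while Atp5g1 and Atp5g2 overlapped between the groups.

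Replicate numbers fall into 2 ranges, 1 to 6 and 7 to 13, each with samples of both groups, and the labels do not say whether the ranges differ in any handling. Signs of the change were the same in both ranges for 65 of 76 members and for 21 of the 21 past the threshold. The 21 were called on these same samples, which largely fixes their agreement, so it is not read as support. No share over all genes is given beside these counts. Atp5g3 differed by 1.00 among replicates 1 to 6 and by 0.99 among replicates 7 to 13. Atp5o differed by -0.64 and -0.55, Ndufs5 by -0.69 and -0.49, Cox6a2 by -0.79 and -1.05 and Ndufa8 by 0.48 and 0.61. Among members past the threshold the widest gaps between the ranges were those of Cox7a1 (1.67 and 0.88), Ndufs8 (-0.80 and -0.23) and Uqcrb (0.62 and 0.26). Within a range fewer genes passed: 2 members were higher and 2 lower in replicates 1 to 6 (5.26%, beside 18.1% of all genes), and 5 and 7 in replicates 7 to 13 (15.8% beside 21.4%).

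**Figure D4:**
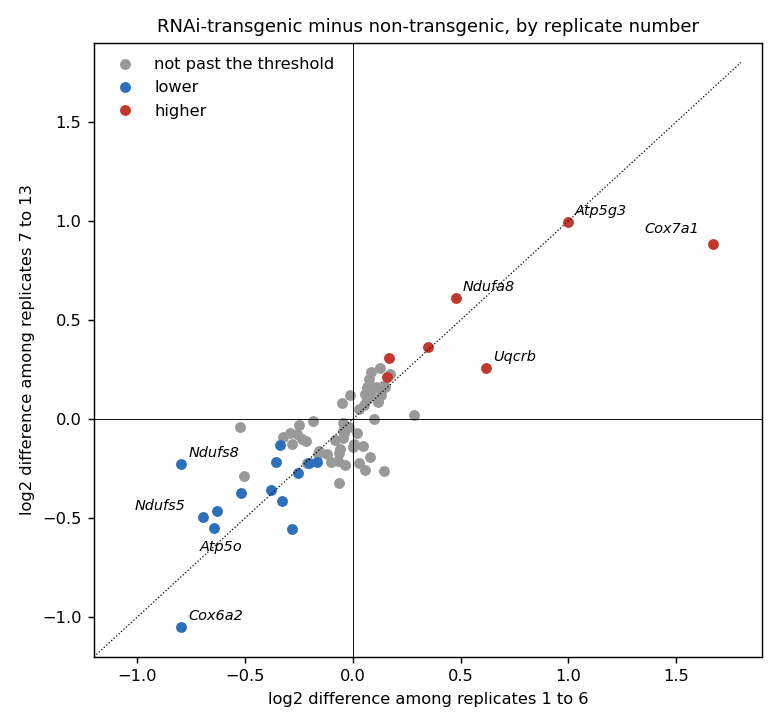
Log2 difference between RNAi-transgenic and non-transgenic oocytes for each of the 76 genes among replicates 1 to 6 (x axis, 2 against 3 samples) and among replicates 7 to 13 (y axis, 2 against 3 samples); the dotted line marks equal differences. Atp5g3 lies on the line at 1.00 and 0.99, and Ndufs8 and Cox7a1 lie off it.

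Samples also differed across the members as a whole. RNAi-transgenic replicate 6 was the highest or lowest of its group in 45 of 76 members (30 highest and 15 lowest), and replicate 12 in 36, of which 29 were lowest. Replicate 13 held such a place in 13 members. Among controls, replicate 8 was the lowest for 33 members and replicate 2 the highest for 32. The Gapdh control, the log2 difference between probe sets at the 3′ and 5′ ends that reports RNA length, was 4.05 ± 0.26 (SD, n = 4) in controls and 3.77 ± 0.18 (SD, n = 6) in RNAi-transgenic samples (exact permutation p = 0.114). With it as a covariate 5 members were higher and 11 lower (21.1%), and the share over all genes was 30.0%. For 42 members more than 1 probe set passed the filter, and in 35 of them all had the same sign. Of the 10 such members past the threshold, all probe sets passed in 6 (Atp5o, Cox6a1, Ndufc2, Ndufv2, Uqcrb and Uqcrh), but not in Atp5h, Ndufs4, Ndufs8 and Uqcrc2.

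Genes that build, feed or regulate the chain were taken from 9 lists of 106 genes in all, of which 72 were tested. Among them 12 were higher and 13 lower, with a median log2 change of 0.03, and these 34.7% are close to the 37.2% of all genes tested. Gpd2, the mitochondrial glycerol-3-phosphate dehydrogenase, which passes electrons from cytosolic glycerol-3-phosphate to ubiquinone, had the largest change of all of them. Controls were at 6.69, 5.80, 7.02 and 7.00, and RNAi-transgenic samples at 10.70, 11.19 and 11.54 (lowest, median and highest). The groups were far apart, and Gpd2 rose by 4.53 (SE 0.24, limma adjusted p = 1.61e-07), an estimated 23.0-fold, and its 2 other probe sets past the filter rose by 4.07 and 3.87, the latter from a control mean of 3.76, below the filter level. In that list of 8 carriers and subunits outside the symbol pattern 1 further gene passed, Etfa of the electron transfer flavoprotein, which fell by 0.32 (limma adjusted p = 0.00604). Cox4i1, a large nuclear subunit of complex IV, was at 12.47 and 12.51 on average, and Cyct, the testis cytochrome c, at 7.96 and 7.85, and neither passed.

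Ubiquinone, the electron carrier between the dehydrogenases and complex III, is made by the Coq proteins. Of 10 genes tested 3 were higher and 2 lower. Coq6, a hydroxylase of the ring, was at 7.63, 7.99, 8.12 and 7.77 in controls and at 6.58, 6.86 and 7.06 in RNAi-transgenic samples. It fell by 1.02 without overlap (SE 0.13, limma adjusted p = 9.62e-05). Coq4 fell by 0.50 (limma adjusted p = 0.00264) and Coq5, a methyltransferase, rose by 0.45 (limma adjusted p = 0.00674). Coq10a, which binds ubiquinone, is counted among the higher genes but entered the test only through the RNAi-transgenic group, with all controls below the filter level. It was at least 1.16-fold higher, the RNAi-transgenic mean of 5.21 over that level.

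Assembly factors were called in both directions. Of 14 for complex I, 1 was higher (Tmem186, by 0.56, limma adjusted p = 0.00912) and 4 were lower. Of the lower ones, Ndufaf8 (-0.30, 0.00457) and Acad9 (-0.48, 0.00775) had the lowest adjusted p. Timmdc1, which is not among the named genes counted in later checks, fell most (-1.26, limma adjusted p = 0.013). Its groups overlapped, and its SD in controls was 0.89. Of 4 for complex II, Sdhaf1 was higher by 0.32 (limma adjusted p = 0.0246), a call lost without non-transgenic replicate 2 or 8 or RNAi-transgenic replicate 4 (0.0507 to 0.0779). Of 6 for complex III, Uqcc2 fell by 0.63 (limma adjusted p = 0.0115). For complex IV, 3 of 18 were higher and 4 lower. Cox11, which delivers copper, rose by 1.04 (limma adjusted p = 0.00222) and Higd1a by 0.47 (0.00051), while Cox10, which makes heme for the enzyme, fell by 0.67 (0.000251) and Surf1 by 0.45 (0.0013).

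Of 6 genes for assembly and inhibition of ATP synthase, Tmem70, which helps to form the c ring, rose by 0.72 (limma adjusted p = 0.000238). Atpif1, the inhibitor of ATP hydrolysis by the enzyme, fell by 0.48 (limma adjusted p = 0.0462), a call lost without any of 8 samples (0.0626 to 0.134), that is, all but non-transgenic replicate 8 and RNAi-transgenic replicate 4. Among 6 nuclear regulators 2 were higher, the coactivators Ppargc1b by 0.56 (limma adjusted p = 0.01) and Pprc1 by 0.37 (0.0107). Nrf1, which encodes nuclear respiratory factor 1, had a mean of 11.37 in both groups. Gabpa, Ppargc1a and Esrra were below the filter. None of the 13 protein genes of mitochondrial DNA was named on the array, so the mitochondrial part of the complexes was not analysed here.

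**Figure D5:**
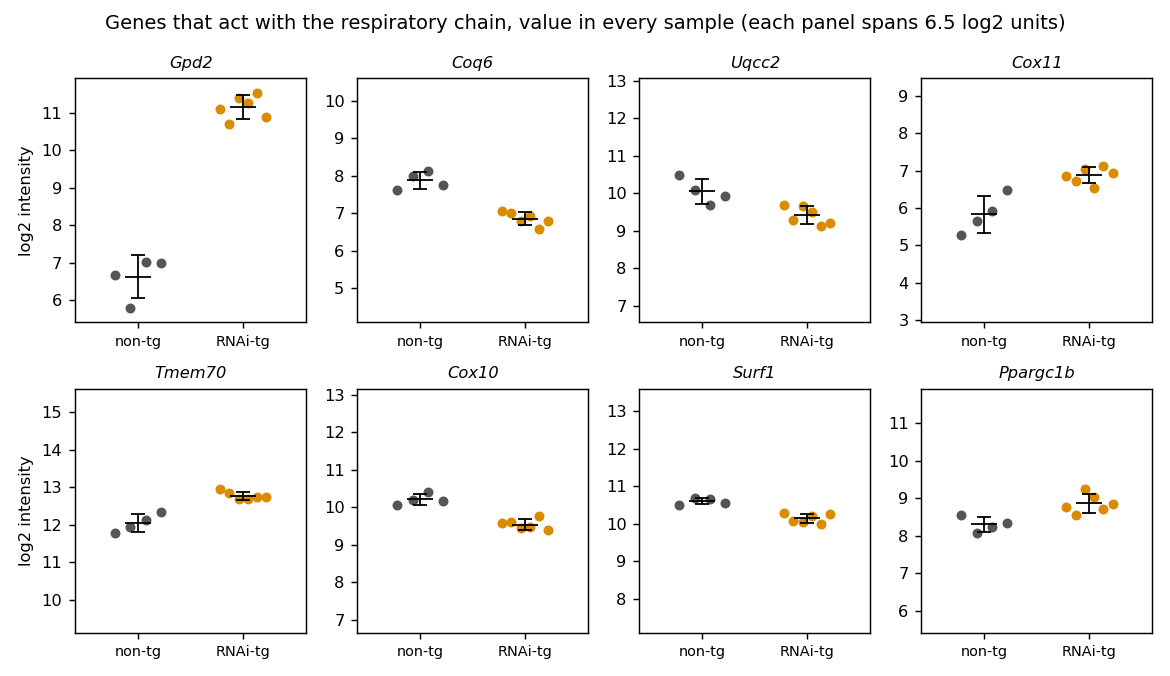
Log2 intensity of 8 genes that act with the respiratory chain in each of 4 non-transgenic (grey) and 6 RNAi-transgenic (orange) samples, with bars for the mean and SD. Panels span 6.5 log2 units from their own starting level, and Gpd2 rose by 4.53 while Coq6 fell by 1.02.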

How the data were processed

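The authors deposited 1 intensity per probe set and array for 10 arrays, on a linear scale; the tool was GCRMA per the submitters' processing notes, with no version named there. GCRMA draws dim probe sets toward a floor, so their folds are uncertain, and the values carry no detection flag. Each array held 45101 probe sets, of which 34958 had 1 gene in the platform annotation. Log2 was taken of these values, which were not normalized again. Probe sets above log2 5 in at least 4 samples were kept, and the brightest over all 10 samples stood for its gene. Groups were compared over all genes with limma 3.58.1 (lmFit, eBayes with a trend) in R 4.3.3, with Benjamini-Hochberg adjustment and a threshold of 0.05; changes are RNAi-transgenic minus non-transgenic. The fit was tested on simulated data. The number of arrays limits the precision. Promoter windows come from RefSeq, GRCm38.p6, matched by gene number; for the arrays themselves no build is stated, so genes are given without positions. Figures were drawn with matplotlib 3.10.9.

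Members and gene lists were chosen with earlier results of these data known. All members past the threshold are named. Sample values are given for at least the 3 higher and 3 lower members of each complex with the lowest adjusted p. They are also given for the isoform families Atp5g, Cox6a, Cox6b, Cox7a and Cox8, for the Sdh genes and for Cycs. Of each related list up to 2 higher and 2 lower genes are named, by lowest adjusted p. Timmdc1 is added for the size of its fall. Alternatives were the filter, between-array scaling, log2(value + 16), variance models, array weights, an RNA length covariate, replicate number ranges, each sample left out, the mean of probe sets and stricter thresholds. Each probe set by itself, leaving out both samples that stood apart, and adjusting isoform pairs without Cox7a1 were chosen after seeing the data.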

Additional observations from a re-analysis of the deposited data

Results flagged for a closer look

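Of 106 groups of values of the named genes, 7 had a sample far from the rest, its gap to the nearest other value taking up more of the group's range than Dixon's test allows; chance alone gives about 1 in 20 groups. RNAi-transgenic replicate 6 was that sample in 5 of them. It was at 7.83 for Ndufs1, while the other 5 RNAi-transgenic samples lay between 8.28 and 8.48. It was at 11.56 for Ndufb8 (others 11.13 to 11.25), at 14.07 for Cox6a1 (13.81 to 13.88), at 12.74 for Cox6b1 (12.22 to 12.37) and at 10.17 for Sdhc (10.45 to 10.52). In Ndufs1 and Ndufb8 the far value lay away from the controls, and in Cox6a1 it lay among them. RNAi-transgenic replicate 12 was far from the others for Ndufc2, at 12.72 against 12.85 to 12.92. Non-transgenic replicate 1 was far from the others for Coq4, at 8.09 against 7.87 to 7.88. RNAi-transgenic replicate 6 also had the largest 3′ to 5′ difference of the Actb RNA length control, 5.13 where the other 9 samples reached at most 4.01; its part in these values was not tested. Ndufs1, Ndufb8, Cox6a1, Ndufc2 and Coq4 passed the threshold by limma with each sample left out in turn.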

How the results depend on the processing

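No paired analysis was possible because the groups share no replicate number. Of the 21 members past the threshold, 13 kept direction and call under the 20 planned settings other than the replicate ranges and stricter thresholds, except that Cox7a1 has no value at a filter level of 7: Atp5g3, Atp5o, Cox6a2, Cox7a1, Uqcrb, Ndufc2, Ndufa8, Ndufs4, Ndufa13, Ndufs5, Ndufs1, Ndufb3 and Ndufb8. Cox7a1 entered the test only through the RNAi-transgenic group, so its place among these is not read as support for its change. With each sample left out, 16 of 21 members and 17 of 19 named related genes stayed past the threshold. Over all settings, 1401 values of single genes were compared with the main ones: 1226 kept sign and side of the threshold, 155 kept the sign and lost the call, 7 gained one and 13 changed sign. Median centring moved the median of all genes to -0.08 and quantile normalization to -0.07.

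Counts of members higher and lower were 2 and 2 in replicates 1 to 6 and 5 and 7 in replicates 7 to 13. They were 5 and 8 at an adjusted p of 0.01, and 2 and 3 with at least 1.5-fold. Both fewer samples and stricter thresholds reduce such counts by construction. For the 72 related genes the counts were 5 and 4, 5 and 8, 7 and 10, and 3 and 5. Beside these, in the same order, 18.1%, 21.4%, 23.6% and 19.1% of all genes tested were called in either direction. With 1 sample left out, members ranged from 6 to 9 higher and 11 to 15 lower, and related genes from 10 to 13 and 12 to 14. Of all genes tested, 31.9% to 35.6% were then called in either direction. The difference of Atp5g2 from Atp5g1 was -0.25 with log2(value + 16) (exact permutation, adjusted p = 0.05), -0.10 in replicates 1 to 6 and -0.40 in replicates 7 to 13; adjusted over the 7 pairs without Cox7a1 it was -0.25 with an adjusted p of 0.05.

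Leaving out 1 sample, pair differences ranged from -0.32 to -0.21 (Atp5g2 from Atp5g1), 0.82 to 0.96 (Atp5g3 from Atp5g1), 1.07 to 1.20 (Atp5g3 from Atp5g2), -0.86 to -0.59 (Cox6a2 from Cox6a1), -1.44 to -1.15 (Cox7a2 from Cox7a1), -1.26 to -0.97 (Cox7a2l from Cox7a1), -0.31 to -0.07 (Cox6b2 from Cox6b1), 0.07 to 0.19 (Cox7a2l from Cox7a2) and 0.18 to 0.30 (Cox8c from Cox8a).

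Signs changed only in genes without a call or in dimmer probe sets, and the cause was not tested. Cox6b1 was 0.0072 in replicates 1 to 6 and 0.060 with the Gapdh covariate, Cox7a2 was 0.0061 with that covariate and Sdhd -0.016. Cox8a was 0.058 in replicates 1 to 6. With 1 sample left out Cox7a2 ranged from -0.082 to 0.029 (without non-transgenic replicate 2; 0.025 without RNAi-transgenic replicate 12) and Sdhc from -0.14 to 0.0025 (without non-transgenic replicate 7). Cycs was 0.14 as the mean of its probe sets and 0.76 by its dimmest. Single probe sets gave 0.056 for Ndufs4, -0.10 for Sdha and 0.0037 for Sdhc. Among related genes Tmem186 (adjusted p = 0.0873), Uqcc2 (0.0807) and Etfa (0.0544) were not past the limma threshold with the Gapdh covariate, nor was Sdhaf1 with median centring (0.0626) or Atpif1 with array weights (0.106), without the filter (0.0741) or as the mean of probe sets (0.12). Dim probe sets, such as that of Cox7a1, limit what can be read from a fold.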
